A study of Mus musculus with 29 samples.

Results

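Colitis from IL-10 deficiency and colitis from dextran sulfate sodium (DSS) were compared directly over all genes in RNA-seq of mouse colon. The comparison takes the 4 libraries labelled IL10 (mice 1, 2, 3 and 4) and the 3 labelled DSS (mice 5, 6 and 8), which are 7 of the 29 mice of the series, and the 3 untreated wild-type mice (1, 2 and 4) that serve both models are given alongside. Each library is 1 mouse, and where values are listed below they follow that order of mice. IL-10 is a cytokine that restrains macrophages and T cells in the gut, and when it or its receptor is lost the immune system reacts to intestinal bacteria and a slowly developing colitis follows. DSS is a sulfated polymer given in drinking water that damages the colonic epithelium, so that bacteria reach the tissue and an acute innate response and then repair follow.

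The groups are described as follows. The labels call all 3 groups BALB/c. The IL-10 deficiency mice received an antibody that the title directs against IL10 and the treatment text against the IL-10 receptor (750 µg by intraperitoneal injection), and were culled after 4 weeks or earlier if colitis was seen. The study's methods instead describe Il10-/- mice that were gavaged with gut microbiota. The DSS mice drank 3% DSS for 5 days and were culled at day 10 by the labels, whereas the methods give C57BL/6 mice, for DSS and for the wild-type controls, and an earlier end point. The methods name the distal colon as the source of tissue RNA for arrays, and for these RNA-seq libraries the labels say colon without a position. Age is not given for these mice. The 2 models also differ in the time from the start of treatment and possibly in genotype, which cannot be told apart from the way colitis was induced.

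Before any comparison, some libraries stood apart. The transcripts of the posterior Hox genes, which mark the distal gut, and of Cdx2, an intestinal transcription factor that is more abundant proximally in the colon, show this. Hoxb13 had 457, 456, 344 and 0.209 CPM (counts per 1000000 counts of the TMM-scaled library) in the IL-10 deficiency mice, 195, 245 and 87.2 in DSS and 445, 408 and 575 in the wild-type mice. Hoxd13 had 249, 276, 7.89 and 0.314 CPM in IL-10 deficiency, 177, 192 and 117 in DSS and 273, 249 and 274 in the wild-type mice. Cdx2 had 15.6, 11.3, 167 and 469 CPM in IL-10 deficiency, 16.4, 19.3 and 11.8 in DSS and 3.89, 4.33 and 8.12 in the wild-type mice. IL-10 mouse 4 held at most 3 counts of Hoxb13 and of Hoxd13, IL-10 mouse 3 had little Hoxd13 but kept Hoxb13, and both had more Cdx2 than any other of these mice. The part of the sampled position in the results was not tested. Counts without IL-10 mice 3 and 4 are given for some of the gene groups and not for all. DSS mouse 8 lay farthest out on the second principal component and held the highest level of many inflammatory genes, and values without it are given as well.

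**Figure D1:**
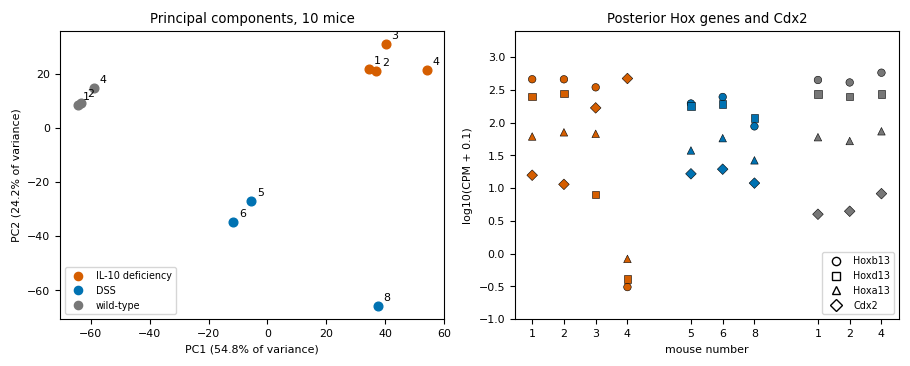
Left, the first 2 principal components of log2 CPM over the 1000 most variable genes in 10 mice (points, numbered by mouse, coloured by group), where PC1 holds 54.8% and PC2 24.2% of the variance, the 4 IL-10 mice lie above 0 on PC2 and the 3 DSS mice below it, mouse 8 lowest. Right, log10(CPM + 0.1) of Hoxb13, Hoxd13, Hoxa13 and Cdx2 in each mouse, where IL-10 mouse 4 is lowest for the 3 Hox genes and highest for Cdx2 (469 CPM).

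Total counts per mouse ran from 11468819 to 12930430 in IL-10 deficiency, from 12287039 to 13801015 in DSS and from 11519242 to 13524777 in the wild-type mice, so the ranges overlapped, and 3 counts corresponded to 0.189 to 0.314 CPM. An antibody, as in the labels, leaves the Il10 gene in place, and a knockout, as in the methods, alters it. Il10 had 8.94, 11.5, 5.23 and 7.84 CPM in IL-10 deficiency, 0.881, 1.03 and 7.04 in DSS and 0.0762, 0.266 and 0.246 in the wild-type mice (log2 fold change 1.51 ± 0.6 SE, adjusted p = 0.038). Every IL-10 mouse lay above every wild-type mouse, and gene-level counts do not show which exons the reads covered. DSS mouse 8 lay within the IL-10 range, and the call was lost without IL-10 mouse 1 or 2 or DSS mouse 5 or 6. Of 7 tested genes listed as differing between the BALB/c and C57BL/6 strains, 2 were higher in IL-10 deficiency than in DSS (Ighg2c and Wdfy1), 1 was lower (Ide) and 4 were not called. Ighg2c, an antibody gene, is also among the higher plasma-cell and immunoglobulin genes below. Wdfy1, a signalling adaptor, had 56.1, 58, 56.1 and 86.3 CPM against 14.1, 18 and 17 in DSS and 19.9, 20.2 and 19 in the wild-type mice, and Ide, insulin-degrading enzyme, had 58.9, 61.6, 58.9 and 66.1 CPM in IL-10 deficiency, 140.2, 125 and 114 in DSS and 119, 111 and 106 in the wild-type mice. Rps3a2, one of several near-identical copies of a ribosomal protein gene, had 424, 415, 377 and 467 CPM in IL-10 deficiency, 2.52, 4.17 and 3.84 in DSS and 3.43, 4.33 and 3.77 in the wild-type mice, while Rps3a1, named here after its values were seen, had 257, 253, 220.1 and 286 CPM in IL-10 deficiency, 843, 670.1 and 799.9 in DSS and 862, 874 and 899 in the wild-type mice. 90.2% of the 50-base windows of Rps3a2 occur in other genes, so how its reads were divided among the copies is uncertain. The IL-10 deficiency mice stood apart from both other groups in Wdfy1, Ide and these Rps3a copies, and mouse background cannot be told apart from the model.

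Of the 18616 genes tested, which averaged 3 counts or more across the 29 mice, 4584 were higher in IL-10 deficiency than in DSS (24.6% of the genes tested) and 4679 were lower (25.1%), at an adjusted p below 0.05 in the edgeR quasi-likelihood test, which is used for every adjusted p below. All 4 IL-10 mice lay above all 3 DSS mice in 21.7% of genes and below them in 22.5%. In total 49.8% of genes were called, so these shares are the background against which the gene groups below are read. Against the wild-type mice 53.3% of genes were called in IL-10 deficiency and 34.0% in DSS, and in 3.35% of genes both were called in opposite directions and the direct contrast was called too. The median log2 fold change over all genes was -0.01. With DSS mouse 8 left out the counts were 4177 higher and 3925 lower, and without IL-10 mice 3 and 4 they were 3969 and 3877.

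**Figure D2:**
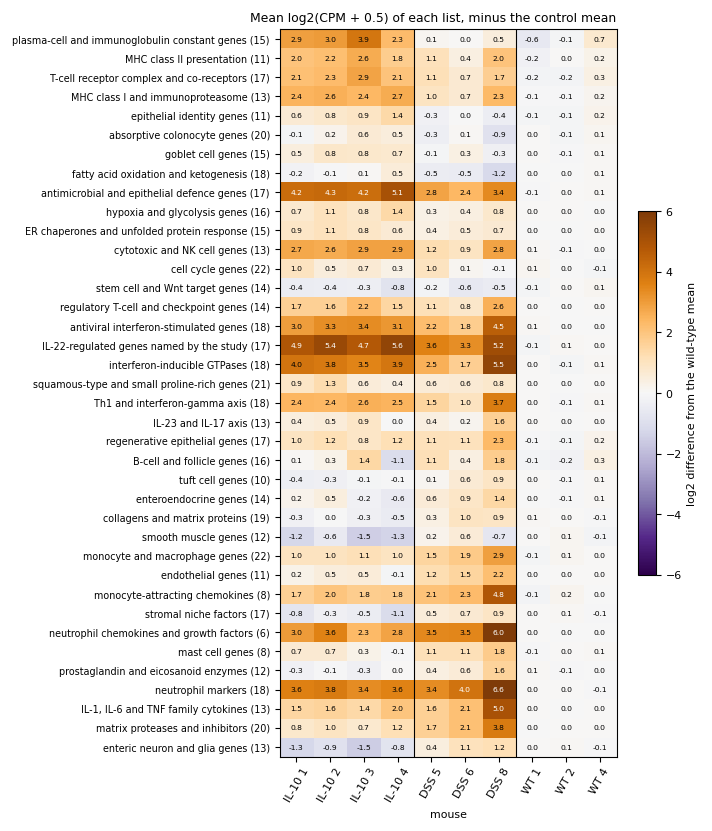
Mean log2(CPM + 0.5) over the tested genes of each list (rows, with the number of genes), minus the mean of the 3 wild-type mice, in every mouse (columns); orange is above and purple below the controls. The rows run from lists higher in IL-10 deficiency, led by plasma-cell genes (mean differences 2.92, 3.02, 3.9 and 2.29), to lists higher in DSS, where DSS mouse 8 has the highest mean for the neutrophil and cytokine lists.

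The largest rise under the naming rule, and the next largest, were in lectins with antibacterial activity that epithelial cells secrete. Reg3b (chr6:78370657-78373466, GRCm38) had 421, 303, 569.8 and 7511 CPM in IL-10 deficiency, 1.2, 0.0684 and 1.68 in DSS and 0.0762, 0 and 0 in the wild-type mice. Reg3g (chr6:78466269-78468872) had 275, 183, 298 and 4487 CPM in IL-10 deficiency, 1.01, 0 and 3.84 in DSS and 0, 0.266 and 0 in the wild-type mice. Each IL-10 mouse was above every DSS mouse, mouse 4 highest, and no DSS mouse passed 3.84 CPM for either gene. The log2 fold change was 11.15 ± 1.62 (SE, adjusted p = 7.49e-06) for Reg3b and 9.72 ± 1.45 (SE, adjusted p = 9.98e-06) for Reg3g. Without IL-10 mice 3 and 4 it was 8.55 (adjusted p = 1.39e-05) and 7.22 (adjusted p = 1.39e-05), respectively. IL-22 is the cytokine best known for inducing these lectins. Its gene, Il22, had 0.506, 0.52, 0.601 and 0.523 CPM in IL-10 deficiency and 1.89, 0.684 and 50.6 in DSS, and was highest in DSS mouse 8, where Reg3b had 1.68 CPM (log2 fold change -5.01 ± 1.13 SE, adjusted p = 0.00107). Leaving out DSS mouse 8 ended that call (log2 fold change -1.25, adjusted p = 0.262). 41% of Il22 windows occur in its near copy Iltifb, so reads of the pair are not separable.

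The promoters of Reg3b and Reg3g, whose transcripts moved together, are shown from RefSeq (GRCm38.p6; 250 bases before and 50 after the start), with matches to TTCNNNGAA, the core bound by STAT factors, in capitals on either strand. Of all 32851 promoters in the table, 8.3% hold this motif. The Reg3b window at chr6:78370635-78370934 (+ strand) holds 1 match and the Reg3g window at chr6:78468825-78469124 (- strand) holds 0.
Reg3b: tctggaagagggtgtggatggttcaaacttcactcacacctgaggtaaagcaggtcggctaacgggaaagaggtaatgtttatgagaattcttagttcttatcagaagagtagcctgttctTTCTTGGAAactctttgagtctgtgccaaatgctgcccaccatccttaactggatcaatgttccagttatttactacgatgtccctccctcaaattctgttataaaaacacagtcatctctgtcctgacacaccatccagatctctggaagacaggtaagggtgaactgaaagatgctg
Reg3g: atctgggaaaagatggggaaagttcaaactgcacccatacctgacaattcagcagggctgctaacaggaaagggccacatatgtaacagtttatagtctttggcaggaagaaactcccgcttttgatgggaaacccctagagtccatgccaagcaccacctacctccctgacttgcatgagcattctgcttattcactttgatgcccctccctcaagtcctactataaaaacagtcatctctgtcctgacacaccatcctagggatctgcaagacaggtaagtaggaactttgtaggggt

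Other defence genes of the epithelium did not all follow. Of 17 tested antimicrobial genes, 7 were higher and 0 lower, with a median log2 fold change of 0.79. Retnlb, a resistin-like protein secreted by goblet cells, had 78.5, 79.2, 84.9 and 874 CPM against 29.5, 9.03 and 25.3, and again mouse 4 was highest (log2 fold change 3.71 ± 0.87 SE, adjusted p = 0.00107). Nos2, the inducible nitric oxide synthase, had 343, 486, 365 and 718 CPM in IL-10 deficiency and 158, 69.4 and 1251 in DSS, with DSS mouse 8 above all IL-10 mice and DSS mice 5 and 6 below them. Its log2 fold change was -0.04 ± 0.72 (SE, adjusted p = 0.97) with all mice and 2.07 (adjusted p = 0.0227) without DSS mouse 8. Duox2, an epithelial source of hydrogen peroxide, had 789.8, 1034, 1111 and 1029.8 CPM in IL-10 deficiency, 379.8, 570.4 and 987 in DSS and 59, 68.2 and 62.6 in the wild-type mice, and did not pass (log2 fold change 0.62 ± 0.28 SE, adjusted p = 0.0722). Pla2g2a, a secreted phospholipase, had 83.6, 104, 109 and 80.8 CPM in IL-10 deficiency, 86.2, 56.1 and 36.8 in DSS and 0.762, 0.799 and 0.902 in the wild-type mice (log2 fold change 0.66 ± 0.45 SE, adjusted p = 0.236). Every mouse of both models lay above the controls for these 3 genes. Duox2 passed as higher in IL-10 deficiency once DSS mouse 8 was left out (log2 fold change 1.06, adjusted p = 0.00529). Of 17 genes that the study named as IL-22-regulated, a list partly chosen on these samples, 4 were higher (Lrg1, Muc4, Reg3b and Reg3g) and 3 lower (Osmr, Cxcl3 and Ccl2), with a median of -0.04. Without DSS mouse 8 the counts were 6 and 0.

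Further genes were higher in all IL-10 mice. Plet1, a GPI-anchored surface protein of epithelial cells (chr9:50494525-50505482), had 298, 522, 594 and 532 CPM in IL-10 deficiency, 8.37, 14.2 and 22.2 in DSS and 0.381, 0.733 and 0.574 in the wild-type mice. Every IL-10 mouse lay above every DSS mouse, and every DSS mouse above the controls (log2 fold change 5.03 ± 0.47 SE, adjusted p = 6.95e-08, a 32.7-fold difference). The antisense transcript Plet1os moved with it, 10.6, 13.1, 21.4 and 17.6 against 0.315, 0.615 and 0.88 CPM, and reads of the pair cannot be told apart because no strand marking is described. Cd177, listed among the neutrophil markers, had 909, 1206, 1374 and 419 CPM against 85.6 to 147 in the DSS mice (log2 fold change 3.14 ± 0.32 SE, adjusted p = 1.36e-07). It was the 1 of 18 such markers that was higher, while 13 were lower, and which cells made its transcript was not tested. Lrg1, a glycoprotein induced in inflamed tissue, had 551, 843, 403 and 211 against 91.8, 69.9 and 119 CPM (log2 fold change 2.42 ± 0.48 SE, adjusted p = 0.000219). Muc4, a membrane mucin, had 147, 154, 207 and 469 against 29.8, 40.5 and 92.2 CPM (log2 fold change 2.18 ± 0.38 SE, adjusted p = 5.87e-05). Mmp7, matrilysin, an epithelial protease, had 18, 12, 13.6 and 53.4 against 0.315, 0.0684 and 1.28 CPM (log2 fold change 5.5 ± 0.81 SE, adjusted p = 1.2e-05). Muc4 and Mmp7 were highest in IL-10 mouse 4, and Cd177 and Lrg1 lowest there. Mmp7 was the 1 member of 20 matrix proteases and inhibitors that was higher.

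Antibody genes were the list with the largest median. Of 15 tested plasma-cell and immunoglobulin constant genes, 12 were higher in IL-10 deficiency and 1 (Ighd) lower, with a median log2 fold change of 4.06 (3.57 without IL-10 mice 3 and 4, with the same counts). Igha, the constant region of IgA, had 3603, 4628, 5337 and 3289 CPM in IL-10 deficiency, 277, 175 and 284 in DSS and 228, 339.7 and 810.4 in the wild-type mice (log2 fold change 4.1 ± 0.4 SE, adjusted p = 1.15e-07). Jchain, the chain that joins IgA for export, had 1676, 1735, 1803 and 1183 against 73.5, 61.9 and 92.3 CPM (log2 fold change 4.4 ± 0.43 SE, adjusted p = 1.67e-07). Tnfrsf17, the plasma-cell survival receptor BCMA, had 5.23, 5.51, 6.35 and 2.4 CPM, while each DSS library held at most 3 counts (adjusted p = 2.16e-06). Ighg2b, an IgG constant region, had 271, 297, 1053 and 99.5 against 6.61, 27.3 and 43.7 CPM (log2 fold change 4.06 ± 0.75 SE, adjusted p = 0.000108). All 12 higher genes lay above DSS in every IL-10 mouse. The wild-type mice spanned more than DSS did for Igha, with 810.4 CPM in control mouse 4. Some genes of resting and follicular B cells were lower. Ighd, the IgD constant region of naive B cells, had 11.9, 11.6, 35.4 and 4.6 against 62.7, 30.5 and 86.2 CPM, and Cr2, a complement receptor of B and follicular dendritic cells, had 5.56, 7.17, 19.1 and 1.15 against 30.7, 17.5 and 47.6. IL-10 mouse 3 overlapped the DSS mice for both, and the log2 fold changes were -1.91 ± 0.44 (SE, adjusted p = 0.00107) and -1.94 ± 0.54 (SE, adjusted p = 0.00437). Of 16 B-cell and follicle genes, 6 were lower, each with some overlap between the groups, and the count fell to 2 without DSS mouse 8 and rose to 9 without IL-10 mice 3 and 4.

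T-cell genes were higher in IL-10 deficiency. Of 17 genes of the T-cell receptor complex and its co-receptors, 12 were higher and 0 lower, with a median of 1.4, and 9 were higher without IL-10 mice 3 and 4. Cd8a, the co-receptor of cytotoxic T cells, had 16.8, 19.3, 20.8 and 19.4 CPM in IL-10 deficiency, 3.27, 1.78 and 5.6 in DSS and 1.3, 0.799 and 1.64 in the wild-type mice (log2 fold change 2.43 ± 0.47 SE, adjusted p = 0.000173). Cd4, the co-receptor of helper T cells, had 16.7, 18.6, 37.1 and 11.3 against 19.8, 22.6 and 27.8 CPM and overlapped between the groups (log2 fold change -0.16 ± 0.34 SE, adjusted p = 0.729). Gzma, a cytotoxic granule protease, had 129, 133, 114 and 212 CPM against 4.28, 2.67 and 23.7 (log2 fold change 3.87 ± 0.66 SE, adjusted p = 4.7e-05). Gzmk, another granzyme, had 7.25, 9.15, 5.75 and 8.47 CPM and at most 3 counts in every DSS library (adjusted p = 1.62e-06). Gzmb had 39.3, 34.5, 37.8 and 44.3 against 4.41, 4.1 and 29.2 CPM, with DSS mouse 8 just below the lowest IL-10 mouse (log2 fold change 1.64 ± 0.52 SE, adjusted p = 0.0117), and the call was lost without DSS mouse 5 or 6. Of 13 cytotoxic and NK cell genes 5 were higher and 1 (Ncr1) lower, with a median of 0.42. That count rested on the DSS mice: 7 were higher without mouse 8 (median 1.31), and 2 without mouse 5 (median -0.09) or without mouse 6 (median -0.12). In the wild-type mice Gzma had 0.229, 0.2 and 0.328 CPM and Gzmk had none. Bulk RNA cannot tell more T cells from more RNA per T cell, and the same holds for every cell type named here. Of 8 type 2 immunity genes, 2 were higher, Gata3 and Prg2, and 5 lower, Il4, Il1rl1, Ccl11, Ccl24 and Retnla. Prg2, the major basic protein of eosinophils, had 4.97, 5.09, 8.24 and 4.5 against 0.252, 0.0684 and 0.32 CPM (log2 fold change 4.7 ± 0.48 SE, adjusted p = 1.39e-07), while Ccl11 and Ccl24 encode chemokines that attract eosinophils.

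Genes of antigen presentation were higher in IL-10 deficiency. Of 11 MHC class II genes, 7 were higher and none lower, with a median log2 fold change of 1.51, and all 7 lay above the DSS mice without overlap. H2-Ab1, a class II beta chain, had 1399, 1676, 1571 and 1705 CPM in IL-10 deficiency, 312, 223 and 633 in DSS and 127, 162 and 196 in the wild-type mice (log2 fold change 2.03 ± 0.34 SE, adjusted p = 3.83e-05). Ciita, the regulator of class II transcription, had 97.8, 89.2, 119.9 and 143 against 30, 18.3 and 70.8 CPM (log2 fold change 1.51 ± 0.41 SE, adjusted p = 0.00367). Of 13 MHC class I and immunoproteasome genes, 9 were higher and none lower. H2-K1, a classical class I chain, had 3406, 3958, 3438 and 3846 against 938, 809.7 and 1906 CPM (log2 fold change 1.59 ± 0.24 SE, adjusted p = 9.65e-06). Without DSS mouse 8 the class I count was 12 and the class II count 7, and the class II counts without IL-10 mice 3 and 4 were 7 higher and 2 lower.

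For Ifng, and for Cxcl9, Ido1 and many interferon-inducible GTPases, which interferon-gamma induces, the call turned on DSS mouse 8. The count of higher class II genes above did not. Cxcl9, a chemokine that draws CXCR3+ T cells, had 116, 122, 105 and 135 CPM in IL-10 deficiency, 21.9, 8.55 and 386 in DSS and 0.838, 0.666 and 0.41 in the wild-type mice. The 4 IL-10 mice were close together, DSS mice 5 and 6 below them and DSS mouse 8 above. Ifng, the cytokine itself, had 3.2, 2.81, 2.92 and 7.01 CPM in IL-10 deficiency and 0.441, 0.137 and 47.5 in DSS. Ido1, a tryptophan-degrading enzyme, had 268, 215, 52.1 and 808 CPM in IL-10 deficiency and 17.9, 2.53 and 315 in DSS. With all mice the log2 fold changes of Cxcl9, Ifng and Ido1 were -0.22 ± 0.88 (SE, adjusted p = 0.86), -2.0 ± 1.04 (SE, adjusted p = 0.115) and 1.59 ± 1.25 (SE, adjusted p = 0.304). Once DSS mouse 8 was left out they were 2.97 (adjusted p = 0.00978), 3.71 (adjusted p = 0.00705) and 5.03 (adjusted p = 0.0128). Of 18 interferon-inducible GTPases, 0 were higher and 2 lower with all mice, and 9 higher and 0 lower without DSS mouse 8. Of 18 Th1 and interferon-gamma genes the counts were 2 and 2 with all mice, and 10 and 1 without it. Tbx21, the transcription factor of Th1 cells, had 2.95, 2.39, 3.26 and 2.09 against 0.378, 0.684 and 1.84 CPM, with no overlap (log2 fold change 1.5 ± 0.5 SE, adjusted p = 0.0149), and lost the call without DSS mouse 5 or 6. Of 18 antiviral interferon-stimulated genes, 1 was higher and 1 lower, and 7 were higher and none lower without DSS mouse 8.

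**Figure D3:**
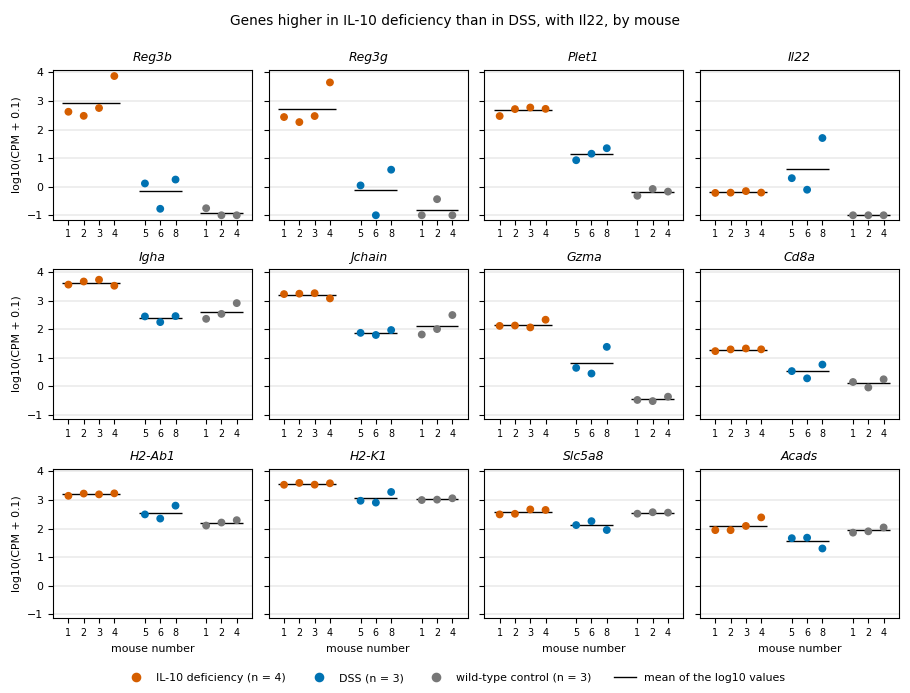
log10(CPM + 0.1) of 12 genes in each mouse (points), with the mean of each group's log10 values (line). Reg3b, Reg3g, Plet1, Igha, Jchain, Gzma, Cd8a, H2-Ab1, H2-K1, Slc5a8 and Acads have all 4 IL-10 mice above all 3 DSS mice, while Il22 is highest in DSS mouse 8 at 50.6 CPM.

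Cd163, F13a1, Mrc1 and Retnla, genes of resident and repair-type macrophages, were lower in IL-10 deficiency and passed the threshold without DSS mouse 8 too. Cd163, a scavenger receptor of resident macrophages (chr6:124304656-124330527), had 2.7, 4.05, 2.75 and 1.46 CPM in IL-10 deficiency, 47.9, 63.9 and 57.2 in DSS and 21, 25.8 and 18.6 in the wild-type mice. IL-10 deficiency was below the wild-type mice in every mouse and DSS above them in every mouse (log2 fold change -4.36 ± 0.44 SE, adjusted p = 1.39e-07). Against the wild-type mice the log2 fold change was -2.99 in IL-10 deficiency and 1.37 in DSS, and the 2 values share the control mice. F13a1, the factor XIII subunit made by such macrophages, had 2.87, 7.38, 2.75 and 7.63 CPM in IL-10 deficiency, 69.4, 90.3 and 107 in DSS and 35.8, 56 and 30.1 in the wild-type mice (log2 fold change -4.13 ± 0.43 SE, adjusted p = 2.01e-07). Mrc1, the mannose receptor, had 37.4, 42.6, 22 and 14.8 CPM in IL-10 deficiency, 118, 170.0 and 124 in DSS and 51.9, 60.1 and 45.5 in the wild-type mice (log2 fold change -2.23 ± 0.28 SE, adjusted p = 1.49e-06). Retnla, a resistin-like protein of alternatively activated macrophages, had 2.19, 3.22, 0.343 and 1.05 CPM in IL-10 deficiency, 32.8, 21 and 6.96 in DSS and 20.3, 22.4 and 19.5 in the wild-type mice (log2 fold change -3.59 ± 0.76 SE, adjusted p = 0.000457), with DSS mouse 8 below the controls. Other macrophage genes differed less. C1qa, a complement subunit, had 200.2, 213, 278 and 212 against 212, 213 and 342 CPM and Cx3cr1, the fractalkine receptor, 16.9, 22.4, 26.6 and 11 against 17.1, 16 and 12.6, and neither passed. Adgre1, which encodes F4/80, had 30.4, 31.1, 41.4 and 25.4 against 65.7, 62.8 and 97.8 CPM (log2 fold change -1.23 ± 0.22 SE, adjusted p = 6.1e-05). Of 22 monocyte and macrophage genes none was higher and 14 were lower, with a median of -1.26. Leaving out DSS mouse 8 gave 2 higher and 9 lower, with a median of -0.6, and leaving out IL-10 mice 3 and 4 gave 14 lower.

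Transcripts of acute inflammation were lower in IL-10 deficiency, with the highest level of each in DSS mouse 8. Il1b, a cytokine activated by the inflammasome, had 40.9, 43.2, 28.8 and 66.8 CPM in IL-10 deficiency, 48.4, 84.2 and 1291 in DSS and 1.6, 0.733 and 1.72 in the wild-type mice. DSS mouse 5 lay within the IL-10 range, mouse 6 above it and mouse 8 far above it (log2 fold change -3.4 ± 0.72 SE, adjusted p = 0.000406 with all mice, log2 fold change -0.56, adjusted p = 0.339 without DSS mouse 8). Cxcl2, which draws neutrophils, had 17.7, 25.3, 9.18 and 22.3 against 27.1, 38.2 and 562 CPM, and Il6 had 0.0843, 0.416, 0.172 and 1.05 against 0.755, 0.82 and 45.2. Both lost the call without DSS mouse 8, with a log2 fold change -0.82, adjusted p = 0.196 for Cxcl2 and a log2 fold change -0.93, adjusted p = 0.357 for Il6. Ptgs2, the inducible cyclooxygenase, had 7, 8.63, 5.75 and 10.9 CPM in IL-10 deficiency, 21.8, 23.2 and 668 in DSS and 11.4, 7.66 and 8.37 in the wild-type mice, so that IL-10 deficiency lay close to the controls. It kept the call without DSS mouse 8 (log2 fold change -4.89 ± 0.77 SE, adjusted p = 1.82e-05, then log2 fold change -1.49, adjusted p = 0.00146). Osm, oncostatin M, had 1.77, 1.14, 1.63 and 4.39 against 4.72, 8 and 98.4 CPM (log2 fold change -4.05 ± 0.72 SE, adjusted p = 7.26e-05, then log2 fold change -1.52, adjusted p = 0.0158), and Ccl3, a chemokine, 1.35, 1.77, 1.46 and 2.3 against 3.27, 7.38 and 179 (log2 fold change -5.2 ± 0.89 SE, adjusted p = 5.09e-05, then log2 fold change -1.64, adjusted p = 0.0238). Of 13 IL-1, IL-6 and TNF family cytokines, 9 were lower with all mice and 2 without DSS mouse 8, and none was higher in either.

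Neutrophil genes showed the same dependence. Of 18 tested neutrophil markers, 13 were lower and 1 higher with all mice, and 3 lower and 2 higher without DSS mouse 8. Without IL-10 mice 3 and 4, 9 were lower and 1 higher. S100a9, a calprotectin subunit, had 102, 127, 31.1 and 91.7 CPM in IL-10 deficiency, 78.1, 147 and 771 in DSS and 0.229, 0.133 and 0 in the wild-type mice (log2 fold change -1.92 ± 0.65 SE, adjusted p = 0.0166, then log2 fold change -0.36, adjusted p = 0.653). Leaving out IL-10 mouse 3 also ended its call. Mmp8, the neutrophil collagenase, had 2.61, 1.87, 1.03 and 3.24 against 7.24, 13.9 and 104 CPM (log2 fold change -4.25 ± 0.74 SE, adjusted p = 5.64e-05, then log2 fold change -2.28, adjusted p = 0.00387). Retnlg, a resistin-like protein of neutrophils, had 6.15, 7.69, 2.15 and 8.05 against 16.3, 25.6 and 217 CPM (log2 fold change -3.85 ± 0.72 SE, adjusted p = 0.00012, then log2 fold change -1.81, adjusted p = 0.0142). In both models S100a9 was far above the wild-type mice.

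Genes of the connective tissue were lower in IL-10 deficiency, and here the difference did not rest on DSS mouse 8. Of 17 stromal niche factors, 14 were lower and none higher with all mice, and 14 lower without DSS mouse 8 and 13 without IL-10 mice 3 and 4. Grem1, an antagonist of BMP signals, had 70.1, 118, 96.2 and 51.1 CPM in IL-10 deficiency, 264, 426 and 1060.1 in DSS and 95.9, 98.1 and 89.5 in the wild-type mice (log2 fold change -2.8 ± 0.34 SE, adjusted p = 9.83e-07). Rspo3, which amplifies Wnt signals to the crypt, had 3.04, 4.78, 3.17 and 4.39 CPM in IL-10 deficiency, 12.8, 18.9 and 29.6 in DSS and 5.94, 7.66 and 6.4 in the wild-type mice (log2 fold change -2.41 ± 0.26 SE, adjusted p = 2.21e-07). Pdgfra, a receptor of fibroblasts, had 43.3, 46.5, 44.7 and 28.5 CPM in IL-10 deficiency, 156, 154 and 205 in DSS and 90.2, 86.4 and 76.1 in the wild-type mice (log2 fold change -2.08 ± 0.19 SE, adjusted p = 7.21e-08). Of 20 matrix proteases and their inhibitors, 16 were lower, and 15 without DSS mouse 8. Mmp3, stromelysin-1, had 10.6, 10.9, 11.7 and 29.6 CPM in IL-10 deficiency, 59.2, 79 and 280.3 in DSS and 2.9, 4.53 and 3.2 in the wild-type mice (log2 fold change -3.16 ± 0.56 SE, adjusted p = 7.4e-05), and Timp1, a metalloproteinase inhibitor, 7.76, 7.38, 6.09 and 10.8 against 20.2, 30.2 and 91.8 (log2 fold change -2.57 ± 0.52 SE, adjusted p = 0.000286). For Grem1 the IL-10 mice spanned the controls and the DSS mice lay above them, and for Pdgfra the IL-10 mice lay below the controls. Of 19 collagens and matrix proteins, 14 were lower and none higher, but Col1a1, the main chain of fibrillar collagen, had 185, 239.7, 233 and 154 against 179.9, 287 and 213 CPM and did not pass (log2 fold change -0.16 ± 0.37 SE, adjusted p = 0.743).

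Muscle, nerve and vessel genes were also lower. Of 12 smooth muscle genes all 12 were lower, of 13 enteric neuron and glia genes 12 were lower, and of 11 endothelial genes 9 were lower, with none higher in these 3 lists. All 4 IL-10 mice lay below all 3 DSS mice in only 4 of the muscle genes. The same held in 12 of the neuron and glia genes and 8 of the endothelial genes. Acta2, smooth muscle actin, had 636, 964, 581 and 646 CPM in IL-10 deficiency, 1528, 2030.0 and 1256 in DSS and 1709, 1659 and 1451 in the wild-type mice (log2 fold change -1.18 ± 0.21 SE, adjusted p = 7.91e-05). Without IL-10 mice 3 and 4, 6 of the 12 muscle genes were lower. Elavl4, an RNA-binding protein of neurons, had 1.18, 1.56, 0.686 and 0.941 CPM in IL-10 deficiency, 7.93, 10.8 and 13.6 in DSS and 6.33, 5.39 and 5.5 in the wild-type mice (log2 fold change -3.3 ± 0.31 SE, adjusted p = 7.31e-08). Pecam1, the endothelial adhesion protein CD31, had 55.6, 55, 59.5 and 28.5 CPM in IL-10 deficiency, 130.0, 165 and 176 in DSS and 80.1, 85.2 and 74.7 in the wild-type mice (log2 fold change -1.66 ± 0.2 SE, adjusted p = 8.51e-07). For Acta2, Elavl4 and Pecam1 every IL-10 mouse lay below every control, and Pecam1 in every DSS mouse lay above them. Epithelial identity genes moved the other way at the same time, all 11 of 11 being higher. Without IL-10 mice 3 and 4, 10 were higher, and Cdx2 was not. Their summed level was 17469, 20598, 17486 and 23458 CPM in IL-10 deficiency, 8937, 10859 and 8167 in DSS and 12031, 11826 and 13923 in the wild-type mice. Krt8, the epithelial keratin 8, had 4493, 5128, 4524 and 6249 against 2150.3, 2688 and 1648 CPM (log2 fold change 1.24 ± 0.14 SE, adjusted p = 4.32e-07). The share of epithelium and of deeper layers in each sampled piece is not given, and its part in the muscle, nerve and stromal differences was not tested.

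**Figure D4:**
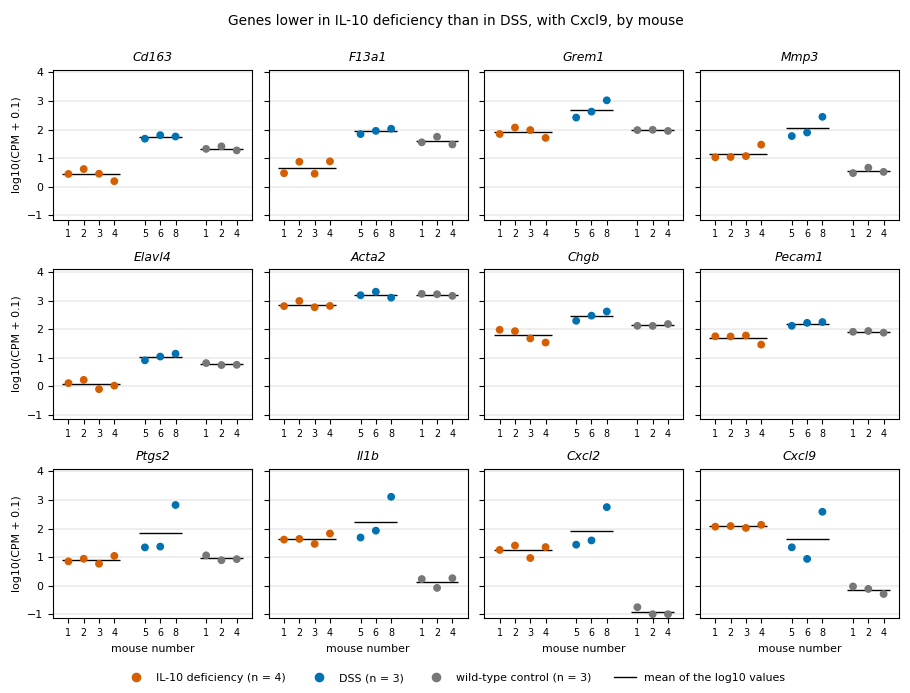
log10(CPM + 0.1) of 12 genes in each mouse (points), with the mean of each group's log10 values (line). Cd163, F13a1, Grem1, Mmp3, Elavl4, Acta2, Chgb and Pecam1 have all 4 IL-10 mice below all 3 DSS mice, and Ptgs2, Il1b, Cxcl2 and Cxcl9 are highest in DSS mouse 8, with Il1b at 1291 CPM.

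Genes of mature colonocytes were higher in IL-10 deficiency beside the epithelial identity genes, whose median log2 fold change was 1.08 with all mice and 1.04 without IL-10 mice 3 and 4. Whether they rose relative to the epithelium was not tested. Of 20 absorptive colonocyte genes, 10 were higher and 1 lower, with a median of 1.01, and 9 were higher and 2 lower without IL-10 mice 3 and 4, with a median of 0.67. Slc5a8, a butyrate transporter, had 312, 328, 466 and 447 CPM in IL-10 deficiency, 132, 181 and 88.6 in DSS and 331, 372 and 360.3 in the wild-type mice, so IL-10 deficiency was near the controls and DSS below them (log2 fold change 1.54 ± 0.23 SE, adjusted p = 8.55e-06). Car1, carbonic anhydrase 1, shows the other case. It had 122, 171, 239 and 3442 CPM in IL-10 deficiency, 427, 733 and 208 in DSS and 793, 723 and 969.6 in the wild-type mice, high in IL-10 mouse 4 and otherwise below the controls. Its log2 fold change was 1.12 ± 0.76 (SE, adjusted p = 0.227) with all mice and -1.63 (adjusted p = 0.0113) without IL-10 mice 3 and 4. Fabp2, a fatty acid binding protein that is stronger in proximal gut, had 7.84, 7.8, 43.8 and 233 against 5.29, 5.06 and 1.28 CPM, and its call was lost without IL-10 mice 3 and 4 (log2 fold change 4.21 ± 0.84 SE, adjusted p = 0.000249, then log2 fold change 1.01, adjusted p = 0.0649). Several of the largest rises were highest in mouse 4 and next highest in mouse 3. Sptssb, a subunit of serine palmitoyltransferase, had 2.87, 2.6, 66.3 and 674 CPM, H2-T3, a nonclassical class I gene, 1.18, 1.04, 10 and 173, and Myl7, a myosin light chain, 5.48, 3.01, 8.24 and 136. For Sptssb and Apol10a, an apolipoprotein L gene, the call was lost without mice 3 and 4 (log2 fold change 2.68, adjusted p = 0.0514 and log2 fold change 2.33, adjusted p = 0.0523).

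Of 18 genes of fatty acid oxidation and ketogenesis, 15 were higher and none lower, and 12 were higher without IL-10 mice 3 and 4. Acads, the short-chain acyl-CoA dehydrogenase used on butyrate, had 87.8, 87.6, 123 and 245 CPM in IL-10 deficiency, 45.8, 47.7 and 19.9 in DSS and 71.6, 79.7 and 109 in the wild-type mice (log2 fold change 1.84 ± 0.3 SE, adjusted p = 2.96e-05). Pparg, a nuclear receptor of colonocyte lipid metabolism, had 69, 80.5, 91.5 and 171 CPM in IL-10 deficiency, 39.3, 31.9 and 23.6 in DSS and 33, 30.4 and 44 in the wild-type mice (log2 fold change 1.7 ± 0.23 SE, adjusted p = 3.99e-06). Of 15 genes of goblet cells, which make mucus, 9 were higher and 1 lower, and 7 and 1 without IL-10 mice 3 and 4. Agr2, a folding factor for mucins, had 983, 978, 799 and 1082 against 298, 411 and 162 CPM (log2 fold change 1.73 ± 0.22 SE, adjusted p = 1.54e-06), and Clca1, a secreted mucus processor, 515, 919, 1887 and 771 against 2380.3, 3061 and 1963 (log2 fold change -1.27 ± 0.43 SE, adjusted p = 0.0162), a call lost without IL-10 mouse 1 or DSS mouse 6. Of 16 hypoxia and glycolysis genes 9 were higher and 2 lower, and of 15 endoplasmic reticulum chaperones 8 and 1.

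Genes of the hormone-secreting and tuft lineages were lower. Of 14 enteroendocrine genes, 7 were lower and 1 higher. Chgb, a granule protein of these cells, had 94.1, 84.4, 46.9 and 33.6 CPM in IL-10 deficiency, 195, 295 and 412 in DSS and 129.9, 129 and 150.0 in the wild-type mice (log2 fold change -2.21 ± 0.25 SE, adjusted p = 3.58e-07), and Gcg, proglucagon, 30.4, 31.1, 33.9 and 15.2 CPM in IL-10 deficiency, 63.5, 63.7 and 113 in DSS and 21.4, 18.3 and 22.6 in the wild-type mice (log2 fold change -1.53 ± 0.24 SE, adjusted p = 2.23e-05). Of 10 tuft cell genes 5 were lower, Dclk1 among them (7.34, 6.76, 7.46 and 10.8 against 15.5, 26.4 and 24.9 CPM). Stem cell and Wnt target genes did not move as one. Of 14 tested, 2 were higher, 4 lower and 8 not called, with a median log2 fold change of 0.03. Lgr5, the crypt stem cell receptor, had 6.91, 4.88, 4.89 and 4.5 CPM in IL-10 deficiency, 3.71, 0.273 and 0.32 in DSS and 11.4, 13.5 and 11.9 in the wild-type mice (log2 fold change 1.83 ± 0.54 SE, adjusted p = 0.00662), whereas Nkd1, a Wnt feedback gene, had 11.6, 22.2, 17 and 16.7 CPM in IL-10 deficiency, 50, 67.1 and 60.5 in DSS and 27.9, 30.6 and 36 in the wild-type mice (log2 fold change -1.81 ± 0.24 SE, adjusted p = 3.1e-06). Of 22 cell cycle genes 1 was higher and none lower, with Mki67, a proliferation marker, at 316, 202, 205 and 205 against 281, 150.5 and 95.8 CPM (log2 fold change 0.4 ± 0.28 SE, adjusted p = 0.249). Ereg, epiregulin, a ligand of the EGF receptor, had 5.4, 4.68, 5.92 and 11.4 CPM in IL-10 deficiency, 21.4, 28 and 185 in DSS and 5.49, 4.93 and 6.56 in the wild-type mice (log2 fold change -3.51 ± 0.6 SE, adjusted p = 4.79e-05).

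**Figure D5:**
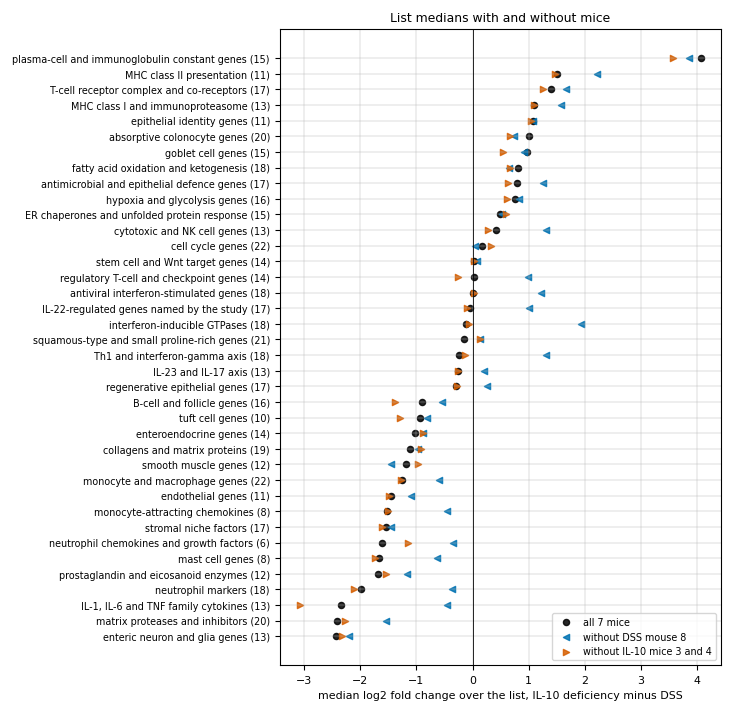
Median log2 fold change over each list (IL-10 deficiency minus DSS), with all 7 mice (black), without DSS mouse 8 (blue) and without IL-10 mice 3 and 4 (orange). The interferon-inducible GTPases move from -0.11 to 1.93 without DSS mouse 8, while plasma-cell and stromal lists stay on their side.

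Other genes were among the 15 largest falls or rises that met the naming rule. Among the largest falls were Il5ra, the interleukin 5 receptor, with 0.674, 1.25, 1.2 and 0.523 against 10.5, 5.4 and 56.1 CPM, and Itgb8, an integrin that activates TGF-beta, with 1.6, 0.831, 2.15 and 0.732 against 14.3, 11.1 and 28.6. Ptx3, a pattern recognition protein, had 0.59, 1.14, 0.944 and 0.941 against 1.83, 3.69 and 39.5 CPM, and Kcne4, a potassium channel subunit, 1.6, 3.43, 2.06 and 3.87 against 15.7, 28.2 and 72.2. Among the rises were Btnl1, a butyrophilin-like protein of epithelium, with 9.27, 9.25, 31.9 and 103 against 0.441, 1.09 and 0.08 CPM, and Tmigd1, an epithelial adhesion protein, with 7.93, 7.9, 48 and 221 against 1.26, 0.615 and 2.4. Serpina3m, a serine protease inhibitor gene, had 2.61, 0.935, 0.429 and 0.941 against 9.76, 11.6 and 29.3 CPM, Snhg11, a noncoding RNA, 1.94, 2.91, 1.72 and 3.03 against 24.4, 26.2 and 42.3, and G0s2, a lipase inhibitor, 5.06, 7.8, 5.83 and 8.36 against 14.2, 21.4 and 217. Slc3a1, an amino acid transporter subunit, had 1.85, 3.01, 25.6 and 43 against 1.13, 0.479 and 0.4 CPM and Alpi, intestinal alkaline phosphatase, 1.43, 2.08, 1.72 and 31.9 against 0.503, 0.342 and 0. 26.9% of the 50-base windows of Krt8, 19.9% of Ifng, 19.1% of Serpina3m, 16.9% of Apol10a and 13.4% of Car1 occur in another gene, and their reads are uncertain to that extent. Exons of Ciita, Il1b, Muc4, Mmp7, F13a1, Rspo3, Pdgfra, Dclk1, Ereg, Cx3cr1, Slc3a1 and Wdfy1 overlap an antisense gene, whose reads cannot be told apart without strand.

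The other lists gave these counts. Of 12 prostaglandin and eicosanoid enzymes and receptors 1 was higher and 8 were lower, and of 8 monocyte-attracting chemokines and growth factors 6 were lower and none higher (3 lower without DSS mouse 8). Of 6 neutrophil chemokines and growth factors 3 were lower, and none was called without DSS mouse 8. Of 13 IL-23 and IL-17 genes 2 were higher and 2 lower, of 7 genes of IL-10 and its family 2 and 3, and of 14 regulatory T-cell and checkpoint genes 3 and 2. With DSS mouse 8 left out none of these 3 lists had a lower gene, and 2, 2 and 5 genes were higher, respectively. Of 21 small proline-rich and squamous-type genes 5 were higher and 2 lower, and of 17 regenerative epithelial genes 1 and 4. Mast cell genes were lower in 5 of 8 and circadian clock genes in 1 of 15, with none higher in either list. Of 10 posterior Hox genes 1 was lower and none higher with all mice, 2 were higher and 1 lower without IL-10 mouse 4, and 4 were higher and none lower without IL-10 mice 3 and 4. Of 8 adipocyte genes 1 was higher and 1 lower.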

How the data were processed

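RNA-seq of colon segments (poly(A)-selected RNA with a RIN above 7) gave 1 library per mouse. The authors deposited raw counts per gene for 29 mice of 9 groups, in 1 table of 54532 genes and 92 spike-in rows that hold no count and were left out. Per the labels' processing notes the tools were Trimmomatic, HISAT2 and HTSeq with GRCm38, with versions and the strand setting not given in the sources used here. All 9 groups entered one fit with edgeR 4.0.16 in R 4.3.3 (TMM scaling, genes averaging 3 counts or more across all mice, quasi-likelihood test, contrast IL-10 deficiency minus DSS, Benjamini-Hochberg over 18616 genes, threshold 0.05, two-sided). CPM are counts per 1000000 counts of the TMM-scaled library, and SE is the size of the log2 fold change over the square root of F. The 46 gene lists and the members were chosen with earlier results of these data known. Genes were also named by a rule, the 15 largest changes in each direction among genes with a mean of at least 5 CPM, an adjusted p below 0.05 and no overlap between the groups, without predicted or antigen-receptor segment genes. Gene positions are on GRCm38 from a GENCODE annotation and symbols from a table of gene names, and 54495 of 54532 identifiers matched. Near-copies were judged by 50-base windows of transcripts shared between genes. The code was tested on simulated data. Some genes of the lists are not reported here. Alternatives were other scalings, filters and sample sets, DESeq2 1.42.0, a threshold of 0.01 and leaving out mice.

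Within each group every pair of libraries differed by more than counting error (a chi-square of 3.42 or more for each degree of freedom), so each mouse counted once. The replicate numbers 1, 2 and 4 are shared by the IL-10 deficiency and wild-type mice, but deviations of same-numbered mice correlated at 0.0556, 0.0139 and -0.0201, so they were not treated as pairs.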

Additional observations from a re-analysis of the deposited data

Results flagged for a closer look

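In 105 named genes, 21 had 1 IL-10 mouse far from the other 3 in CPM, past Dixon's 95% critical value. The genes were named with values of these mice known, so no chance rate is set beside that count. Of the 21 genes, 16 had mouse 4 apart, the mouse with almost no posterior Hox expression. Mouse 4 was highest for Reg3b (7511 CPM), Reg3g (4487), Car1 (3442), Retnlb (874), Sptssb (674), Fabp2 (233), H2-T3 (173) and Myl7 (136). It was also highest for Wdfy1 (86.3 CPM), Mmp7 (53.4), Alpi (31.9), Mmp3 (29.6), Gata3 (24.3) and Ifng (7.01), and lowest for Pecam1 (28.5) and Hoxa13 (0.732). The other mice apart were mouse 2 for Acta2 (964 CPM), mouse 3 for C1qa (278) and Prg2 (8.24), and mouse 1 for Mki67 (316) and Lgr5 (6.91). The part of the sampled position in these values was not tested.

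For 17 named genes IL-10 deficiency and DSS moved in opposite directions against the shared wild-type mice, each past the threshold, and the difference between the models was tested by the direct contrast. Over all 18616 genes tested this held for 3.35%, and the named genes were chosen partly for the size of that difference. Higher in IL-10 deficiency, with log2 fold changes against DSS, were Btnl1 (6.09), Tnfrsf17 (4.83), Jchain (4.40), Agr2 (1.73) and Krt8 (1.24). Lower were the macrophage genes Cd163 (-4.36), F13a1 (-4.13) and Mrc1 (-2.23), and Kcne4 (-3.83), Snhg11 (-3.70) and Elavl4 (-3.30). The same held for the stromal and vessel genes Rspo3 (-2.41), Pdgfra (-2.08) and Pecam1 (-1.66), and for Chgb (-2.21), Nkd1 (-1.81) and Dclk1 (-1.46).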

How the results depend on the processing

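The number of genes higher in IL-10 deficiency was 4584, and 2526 when the 7 mice of both groups were fitted alone. The number lower was 4679, and 3423 in that smaller fit. There, lower neutrophil markers went from 13 to 5 and lower B-cell and follicle genes from 6 to 0. Higher plasma-cell genes went from 12 to 11, and higher MHC class II genes stayed at 7. The common coefficient of variation between mice was 0.301 in IL-10 deficiency, 0.341 in DSS and 0.102 in the wild-type mice. The fit of all 9 groups shares its spread among them, while the smaller fit draws none from the other groups and called fewer genes. The scaling and the genes tested differed there too, so the part of the shared spread alone was not tested. Leaving out 1 mouse at a time gave 4157 to 4517 higher and 3925 to 4700 lower genes. Without IL-10 mice 3 and 4 and DSS mouse 8, a choice made after seeing the data like the other combined omissions, 3715 were higher and 3278 lower. Upper quartile scaling moved the median of all genes to -0.138 from -0.014. It moved the share of calls that were higher to 39.6% from 49.5%, with no named gene losing its call. In the fit of the 7 mice alone, 14 named genes lost their call, and 4 did with the wild-type mice added to it. DESeq2 called 3214 higher and 3536 lower, and 2 named genes lost their call among those it gave an adjusted p.

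Sign changes are given where the value passed the threshold in either fit, and the cause was not tested. Over the omissions of 1 mouse, the log2 fold change of Car1 ran from -1.36 (without IL-10 mouse 4) to 1.63. With DSS mouse 8 left out, Ccl2 was at 0.14, Cxcl9 at 2.97, Ifng at 3.71 and Nos2 at 2.07, the highest of their ranges, whose lowest values were -2.51, -0.78, -2.60 and -0.57, each without DSS mouse 6. Without IL-10 mice 3 and 4, Car1 was -1.63, Cdx2 -0.22 and Hoxd13 0.71. Without IL-10 mouse 4 and DSS mouse 8, Car1 was -1.71, Ccl2 0.09, Cxcl9 2.90, Ifng 3.30 and Nos2 1.80. Without all 3 mice, Car1 was -1.97, Ccl2 0.13, Cdx2 -0.39, Cxcl3 0.04, Cxcl9 2.96, Hoxd13 0.52, Ifng 3.32 and S100a9 0.04.

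The direct contrast had no fit with the replicate number as a block, because the DSS mice share no number with the IL-10 mice. For IL-10 deficiency against the wild-type mice, the replicate block gave 3927 higher and 3702 lower genes, against 4548 and 4481 in the same 7 mice without it. Depth limits genes near 3 counts (0.189 to 0.314 CPM), and strain and time cannot be told apart from the model. The sampled segment is not given, and its part was not tested.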
